A study of Mus musculus with 3 samples.

Results

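The genes described here mark the red blood cell and granulocyte lineages and were measured in a preparation of mouse regulatory T cells. They were chosen by name as 17 erythroid and 16 granulocyte genes, 33 in all. Symbols were matched to the Ensembl identifiers of the count tables through GENCODE M21 (GRCm38), which found 16 erythroid and 16 granulocyte genes, or 32 of the 22457 genes in the tables. No identifier matched Ahsp, and it was not analysed here. The genes were ordered by the stage at which they are used: erythroid early, erythroid precursor and globins, then granulocyte progenitor, precursor and mature.

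Polyadenylated RNA was sequenced from adult mouse regulatory T cells, the CD4 T cells that restrain immune responses, at an age of 4 months. The labels describe primary cells and trace them to haematopoietic cells of bone marrow. They name no strain, genotype, treatment or sorting gate, and sex was not collected. All 3 libraries are labelled technical replicates of 1 biological replicate, so p-values below measure differences beyond counting error between libraries and say nothing of variation between animals. The libraries held 3206781, 3228215 and 2872350 counts. Defining markers of the labelled cells were present in every library, with 455, 507 and 432 counts of Foxp3, the transcription factor of regulatory T cells, in libraries 1, 2 and 3, and 1217, 1107 and 1252 counts of Il2ra, the IL-2 receptor alpha chain, which differed by 1.30-fold in level (adjusted p = 5.63e-08, chi-square test described below).

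Red blood cells mature in the marrow from progenitors that depend on the transcription factors GATA1 and KLF1. They take up iron through the transferrin receptor, make haem, build a membrane skeleton around the anion exchanger and the spectrins, and fill with haemoglobin. Neutrophil granulocytes load their granules in sequence: primary granule proteases at the promyelocyte stage, secondary granule proteins at the myelocyte stage, and gelatinase and late receptors in mature cells. Because these stages use different genes, stage lists can be compared between libraries.

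Most of the erythroid and granulocyte genes were near or at a count of 0 in library 1 and present in library 2, with library 3 between them or equal to library 2 depending on the gene. The erythroid genes summed to 617, 1382 and 1067 counts in libraries 1, 2 and 3, which was 0.0192%, 0.0428% and 0.0371% of all counts. The granulocyte genes held 49, 339 and 78 counts, or 0.00153%, 0.0105% and 0.00272%. The median erythroid gene stood at 0.624, 23.4 and 17.6 CPM (counts per 1000000 counts of the library) over the 16 measured, and the median granulocyte gene at 0, 1.70 and 1.04 CPM. The median of all 22457 genes was 1.25, 1.24 and 1.39 CPM. In a bulk preparation, fewer cells of a type and less RNA per cell cannot be told apart.

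**Figure D1:**
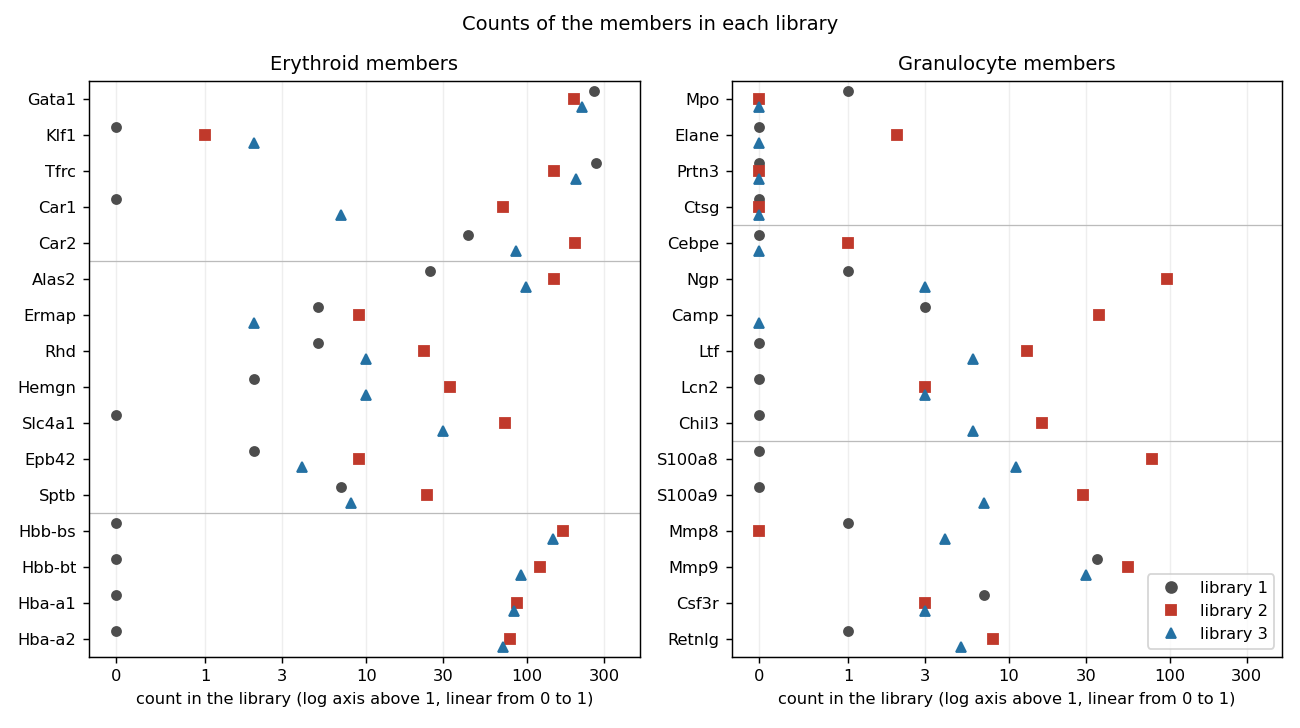
Counts of the 16 erythroid genes (left) and the 16 granulocyte genes (right) in libraries 1, 2 and 3, 1 point per library, on an axis that is linear from 0 to 1 and logarithmic above; horizontal lines separate the stage lists. The 4 globin genes have 0 counts in library 1 and 71 to 167 in the other libraries, while Gata1 and Tfrc have 147 to 269 counts in all 3.

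Each gene with a mean count of at least 10 was compared across the 3 libraries with a chi-square test of its counts, with library sizes scaled by TMM and p-values adjusted by Benjamini-Hochberg over all 10282 genes tested. A call below means an adjusted p under 0.05. Of all genes tested, 27.6% were called, and 11.1%, 8.71% and 7.75% were called with their highest level in library 1, 2 and 3. Of the 16 erythroid genes 13 reached the minimum count and all 13 were called, 2 with the highest level in library 1, 9 in library 2 and 2 in library 3. Of the 16 granulocyte genes 5 reached it and 4 were called, all with the highest level in library 2. Several of these genes passed the minimum only through the libraries in which they were high and so had to differ, and the counts are given as a description. When the spread between libraries was taken as wider than counting error (a common coefficient of variation of 12.5%), 0.904% of all genes were called, with 9 erythroid and 4 granulocyte genes among them. Without library 1, 16.5% of all genes were called, with 5 erythroid genes. Without library 2, 9.38% of all genes were called, with 7 erythroid and 0 granulocyte genes, of which Mmp9 alone then reached the minimum count. Leaving out library 3 gave 19.5%.

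Pairs of libraries were compared with an exact binomial test on genes with at least 10 counts over the pair, adjusted in the same way. Library 2 exceeded library 1 in 11 of 15 erythroid and 6 of 8 granulocyte genes tested, against 6.65% of all genes tested. It fell below library 1 in 2 erythroid genes, Gata1 and Tfrc, against 10.3% of all genes. Library 3 exceeded library 1 in 7 of 12 erythroid genes and 1 of 3 granulocyte genes, against 3.12% of all genes, and no member was lower, against 4.9%. Between the libraries that held most of these transcripts, library 3 exceeded library 2 in 1 of 15 erythroid genes, Tfrc, against 8.22% of all genes. Library 3 was lower in 4 of 15 erythroid genes and 4 of 8 granulocyte genes, against 5.82% of all genes. Members at or near 0 in library 1 reached 10 counts only through the other library and had to differ. These counts too are a description and no support. The same holds for the p-values below of genes at or near 0 in 1 library of a pair. The comparisons share libraries, so their counts are not independent.

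The early erythroid genes did not share 1 order across the libraries. Gata1 (chrX:7959260-7978071, minus strand), the master transcription factor of the erythroid lineage, had 259, 196 and 220 counts in libraries 1, 2 and 3. Libraries 1 and 3 were not called different (library 3 to library 1 ratio 0.945, 0.786 to 1.14, adjusted p = 0.853, exact binomial test). The difference between library 1 and library 2 was 1.37-fold (95% interval 1.13 to 1.65, adjusted p = 0.0109, exact binomial test), but its chi-square call (adjusted p = 0.0148) was lost with the wider spread (adjusted p = 1.00), without library 1 (0.0543) and without library 2 (0.772). Klf1, the erythroid Krüppel-like factor that switches on adult beta globin, had 0, 1 and 2 counts, too few to compare. In libraries 1, 2 and 3, 259, 196 and 220 counts of Gata1 thus stood beside 0, 1 and 2 counts of Klf1.

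Tfrc, the transferrin receptor, which dividing lymphocytes also use to take up iron, had 269, 147 and 200 counts. Library 1 was 1.89-fold above library 2 (1.54 to 2.33, adjusted p = 2.25e-08, exact binomial test), and library 3 was 1.56-fold above library 2 (1.26 to 1.95, adjusted p = 0.000916, exact binomial test). Its order across libraries was thus the opposite of that of most erythroid genes. The chi-square call was lost with the wider spread (adjusted p = 0.396) and without library 2 (0.202).

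The carbonic anhydrases interconvert carbon dioxide and bicarbonate, and the pair lies close together on chromosome 3. Car1 (chr3:14766216-14808368), an erythroid isoform, had 0, 71 and 7 counts. It was high in library 2 alone, at least 22.9-fold above library 1 (read against a floor of 3 counts, adjusted p = 7.79e-19, exact binomial test) and 8.82-fold above library 3 (4.07 to 22.7, adjusted p = 2.20e-10, exact binomial test). Car2 (chr3:14886273-14900770), which many cell types also use, had 43, 198 and 85 counts. All 3 pairs of libraries differed: library 2 was 4.46-fold above library 1 (3.19 to 6.35) and 2.03-fold above library 3 (1.56 to 2.64), and library 3 was 2.20-fold above library 1 (1.51 to 3.25), with adjusted p of 2.74e-21, 1.38e-06 and 0.000968 in the exact binomial test. Per kilobase of coding sequence and scaled to 1000000 per library, Car2 reached a level of 23.6, 103 and 51.1, and Gata1 78.1, 56.2 and 72.7.

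Of the 7 erythroid precursor genes measured, the 5 called (Alas2, Slc4a1, Hemgn, Rhd and Sptb) were highest in library 2 and lowest in library 1. Alas2 (chrX:150547375-150570638), the erythroid enzyme that starts haem synthesis, had 25, 146 and 99 counts. Library 2 was 5.65-fold (3.68 to 9.02, adjusted p = 1.10e-18) and library 3 4.41-fold (2.82 to 7.14, adjusted p = 6.33e-11) above library 1 in the exact binomial test, whereas libraries 2 and 3 differed by 1.28-fold with an interval that includes 1 (0.987 to 1.67, adjusted p = 0.224). The Alas2 model overlaps Apex2 on the opposite strand, which had 107, 115 and 106 counts, and the strand setting of the counting is not given.

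Slc4a1 (chr11:102348824-102366203), the band 3 anion exchanger of the red cell membrane, had 0, 73 and 30 counts. It separated all 3 libraries: library 2 was at least 23.6-fold and library 3 at least 11.1-fold above library 1 (adjusted p = 2.07e-19 and 6.95e-08), and library 2 was 2.12-fold above library 3 (1.37 to 3.35, adjusted p = 0.00653) in the exact binomial test. Hemgn, a nuclear protein of erythroid differentiation, had 2, 33 and 10 counts. Library 2 was 16-fold above the 2 counts of library 1 (4.09 to 137, adjusted p = 2.77e-06) and 2.87-fold above library 3 (1.38 to 6.53, adjusted p = 0.0259) in the exact binomial test.

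Rhd, the Rh blood group protein, had 5, 23 and 10 counts, and library 2 was 4.45-fold above library 1 (1.66 to 15.0, adjusted p = 0.0116, exact binomial test). Sptb, the erythroid beta spectrin, had 7, 24 and 8 counts, and library 2 was 3.32-fold above library 1 (1.39 to 9.12, adjusted p = 0.0307, exact binomial test). Their chi-square calls (adjusted p = 0.0135 and 0.0139) were lost with the wider spread (0.310 and 0.319) and without library 1 (0.199 and 0.0752). Sptb overlaps Plekhg3 on the opposite strand, with 33, 34 and 25 counts. Ermap, an erythroblast membrane protein, had 5, 9 and 2 counts, and Epb42, the membrane skeleton protein 4.2, had 2, 9 and 4. Neither passed a test.

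The adult globins had no counts in library 1 and similar counts in libraries 2 and 3. Haemoglobin is built of alpha and beta chains, and in the mouse each is encoded by a pair of nearly identical genes. The coding sequences of Hbb-bs and Hbb-bt are 444 bases long and 99.8% identical, with the substitution C417T between them, and those of Hba-a1 and Hba-a2 are 429 bases long and 99.8% identical, with C381T. The 41 bases around each mismatch (GENCODE M21 transcripts, 5′ to 3′, mismatch in capitals, positions counted from the A of the start codon) hold the only difference between the coding sequences of each pair.
Hbb-bs: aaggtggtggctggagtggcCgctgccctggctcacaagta
Hbb-bt: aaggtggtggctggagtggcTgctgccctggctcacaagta
Hba-a1: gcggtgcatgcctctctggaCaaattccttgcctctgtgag
Hba-a2: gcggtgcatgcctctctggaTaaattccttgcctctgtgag
Of all stretches of 50 bases in the annotated transcripts, 53.2% of Hbb-bs, 58.3% of Hbb-bt, 72.3% of Hba-a1 and 89.3% of Hba-a2 also occur in another gene. The split of counts within each pair is therefore uncertain, and the sum over the 4 genes depends on how reads that fit several genes were counted, which is not given. The part of the shared sequence in the globin counts was not tested.

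Hbb-bs (chr7:103826534-103828096) had 0, 167 and 145 counts, and Hbb-bt (chr7:103812524-103813996) had 0, 121 and 91. Hba-a1 (chr11:32283511-32284465) had 0, 86 and 83 counts, and Hba-a2 (chr11:32296489-32297298) had 0, 78 and 71. Library 1 thus stood apart from the others in every globin gene. Against the floor of 3 counts, library 2 was at least 53.9-, 39.0-, 27.8- and 25.2-fold above library 1 in the order Hbb-bs, Hbb-bt, Hba-a1 and Hba-a2, and library 3 at least 53.8-, 33.8-, 30.8- and 26.3-fold. The largest of these 8 adjusted p-values was 1.26e-20 (exact binomial test). The 0 counts of 3206781 in library 1 allow a globin share of up to 0.000115%, the upper bound of an exact 95% binomial interval.

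No globin was called different between libraries 2 and 3: the library 2 to library 3 ratio was 1.00 for Hbb-bs (0.797 to 1.26), 1.16 for Hbb-bt (0.874 to 1.54), 0.901 for Hba-a1 (0.659 to 1.23) and 0.956 for Hba-a2 (0.684 to 1.34). Over the summed globins, 452 counts against 390, the library 3 to library 2 ratio was 0.992 (0.864 to 1.14). Without library 1 the globin calls were therefore lost, with adjusted p from 0.529 to 0.994 in the chi-square test. Alpha globin made up 36.3% of globin counts in library 2 (31.8 to 40.9) and 39.5% in library 3 (34.6 to 44.5). Per kilobase of coding sequence, Hbb-bs reached a level of 154 in both libraries and Hba-a1 82.2 and 91.3. The embryonic and other globin genes of the same loci held 1, 2 and 1 counts over 6 genes measured.

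Similar globins and unequal earlier genes meant that the makeup of the erythroid signal differed between libraries 2 and 3. Car1 made up 13.6% of the counts of Car1 plus globins in library 2 (exact 95% interval 10.8 to 16.8) and 1.76% in library 3 (0.712 to 3.60). Slc4a1 set against globins in the same way made up 13.9% (11.1 to 17.2) and 7.14% (4.87 to 10.04), and Hemgn 6.80% (4.73 to 9.42) and 2.5% (1.21 to 4.55). Each share was lower in library 3, with intervals that do not overlap. For Alas2 the shares were 24.4% (21.02 to 28.1) and 20.2% (16.8 to 24.1), with overlapping intervals. Such shares do not depend on the scaling of the libraries, and their intervals cover counting error only.

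**Figure D2:**
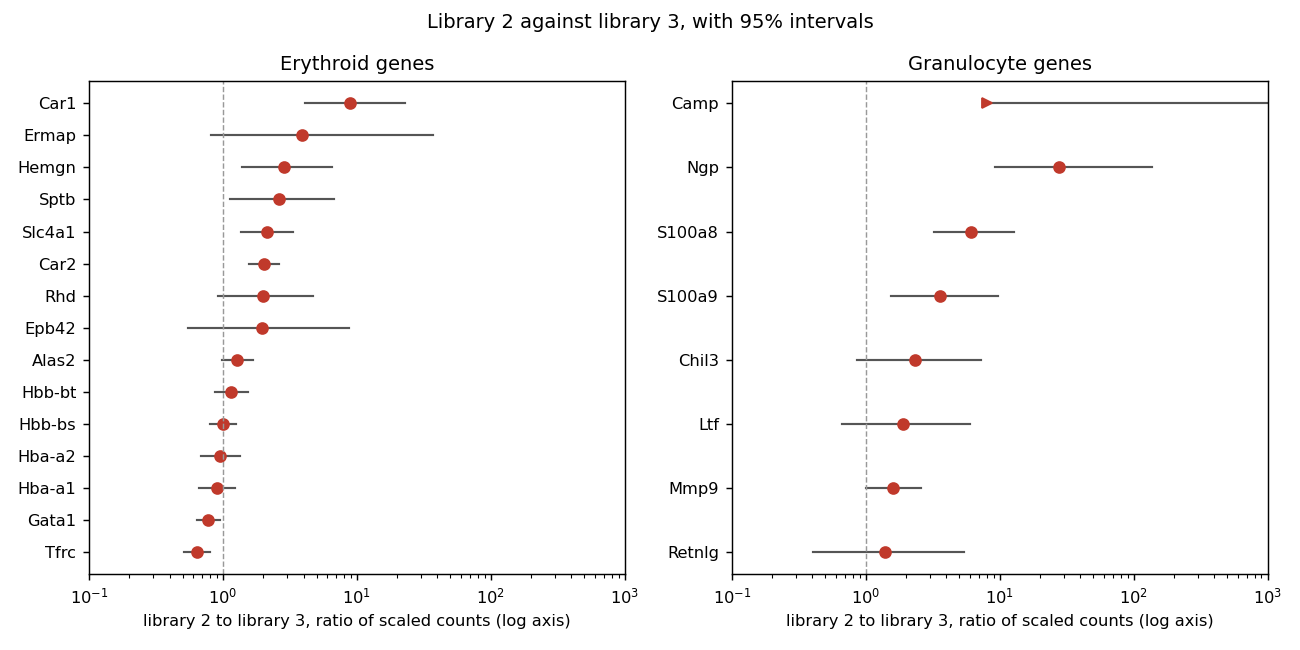
Ratio of library 2 to library 3 (scaled counts, log axis) for the 15 erythroid and 8 granulocyte genes with at least 10 counts over the pair; points are ratios, lines are 95% exact binomial intervals, genes are ordered by their ratio, and Camp, with 0 counts in library 3, is drawn as an arrow from its lower limit of 8.06. The 4 globins lie at 0.901 to 1.16 while Car1 lies at 8.82 and Ngp at 27.8.

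Of the summed erythroid stage lists, the precursor sum differed between libraries 2 and 3, and the early and globin sums had overlapping intervals. The early erythroid genes summed to 178, 190 and 179 CPM in libraries 1, 2 and 3 (exact Poisson intervals of 164 to 193, 175 to 206 and 164 to 195), a sum made up mostly of Gata1, Tfrc and Car2. The precursor genes summed to 14.3 CPM (10.5 to 19.1), 98.2 (87.7 to 110) and 56.7 (48.4 to 66.2), and the globins to 0, 140.0 (127 to 154) and 136 (123 to 150). Precursor counts were 1.69-fold higher in library 2 than in library 3 (1.40 to 2.06), while the interval of the globin ratio included 1. Of all erythroid counts, the early genes made up 92.5%, 44.4% (41.7 to 47.0) and 48.2% (45.1 to 51.2), and globins 0%, 32.7% (30.2 to 35.3) and 36.6% (33.7 to 39.5). When Gata1, Tfrc and Car2, which other cells also use, were set aside after their values were seen, the early share that remained, which is nearly that of Car1 alone, was 8.56% in library 2 (6.76 to 10.7) and 1.60% in library 3 (0.735 to 3.02), and the globin share was 53.7% (50.3 to 57.2) and 69.4% (65.4 to 73.2).

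**Figure D3:**
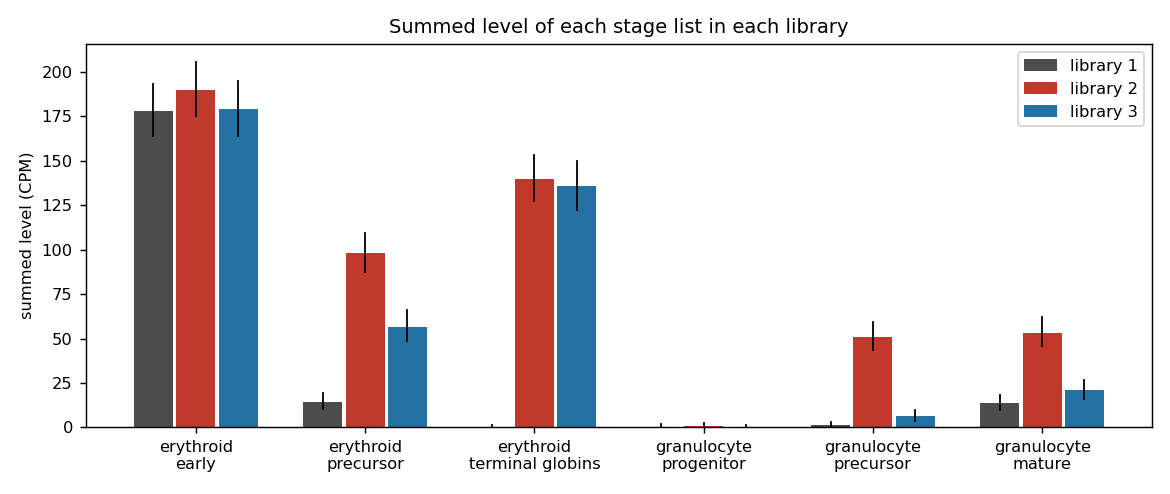
Summed level in CPM of each of the 6 stage lists in libraries 1, 2 and 3; bars are single libraries and lines are exact Poisson 95% intervals, which cover counting error only. Globins are at 140.0 and 136 CPM in libraries 2 and 3, whereas the granulocyte precursor genes are at 51.1 and 6.27 CPM.

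Of 32 other erythroid genes measured, 14 were tested across the 3 libraries and 3 were called (27.6% of all genes were called). Rhag, a partner of the Rh protein named after its values were seen, had 0, 15 and 1 counts, and library 2 was 13.0-fold above library 3 (2.01 to 549, adjusted p = 0.0147, exact binomial test). It stood highest in library 2, as Car1 did. Bpgm, the bisphosphoglycerate mutase, ran the other way with 175, 83 and 136 counts. The 3 genes of this list with the highest mean level, Cat, Prdx2 and Xpo7, are used by many cells: Prdx2 had 473, 559 and 456 counts and Xpo7 442, 405 and 389, with no call, and Cat 807, 845 and 829, called at a ratio of 1.14 (adjusted p = 0.0423, chi-square test).

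In the haem synthesis pathway, which runs from the aminolaevulinate synthases to ferrochelatase, Alas2, Alas1, Alad and Fech were called with the highest level in library 2. Alas1, the isoform of most tissues, had 291, 379 and 286 counts, and Alad 373, 471 and 314. Fech, the ferrochelatase that inserts iron, had 137, 196 and 114. For Alas1, Alad and Fech the counts of libraries 1 and 3 were close and those of library 2 higher, whereas Alas2 was low in library 1 alone.

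The granulocyte progenitor genes were near 0 in every library. Mpo, the myeloperoxidase of primary granules, had 1, 0 and 0 counts, and Elane, neutrophil elastase, 0, 2 and 0. Prtn3, proteinase 3, and Ctsg, cathepsin G, had no count. The floor of 3 counts, a chosen setting, corresponds to 0.936, 0.929 and 1.04 CPM in libraries 1, 2 and 3. Levels below these rest on fewer than 3 counts and cannot be compared.

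Of the 6 precursor genes of the secondary granules, Ngp and Camp were called across the 3 libraries, with the highest level in library 2. Ngp (chr9:110419747-110423012), the neutrophilic granule protein, had 1, 96 and 3 counts. Library 2 stood 92.9-fold above the single count of library 1, a ratio with a wide interval (16.3 to 3708, adjusted p = 2.89e-24) and 27.8-fold above library 3 (9.24 to 137, adjusted p = 1.47e-19) in the exact binomial test. Camp (chr9:109847379-109849617), the cathelicidin antimicrobial peptide, had 3, 36 and 0 counts. Library 2 was 11.6-fold above library 1 (3.67 to 59.0, adjusted p = 2.79e-06) and at least 10.4-fold above library 3 when its 0 counts are read at the floor of 3 (95% lower limit of the ratio 8.06, adjusted p = 3.01e-08) in the exact binomial test.

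Ltf, the iron-binding lactoferrin, had 0, 13 and 6 counts, and Chil3, a chitinase-like protein, 0, 16 and 6. Library 2 was at least 4.19-fold and at least 5.16-fold above library 1 (adjusted p = 0.00401 and 0.000784, exact binomial test). Both genes reached the minimum count of that test through library 2 alone, so these calls are no support. Libraries 2 and 3 did not differ by the test, at 1.88-fold for Ltf (0.668 to 6.05) and 2.32-fold for Chil3 (0.862 to 7.24). Lcn2, lipocalin 2, had 0, 3 and 3 counts, and Cebpe, the transcription factor of secondary granules, 0, 1 and 0. Within the granule genes the drop from library 2 to library 3 was thus unequal. Ltf made up 11.9% of the counts of Ltf plus Ngp in library 2 (6.51 to 19.5) and 66.7% of 9 counts in library 3 (29.9 to 92.5).

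Among the mature list, the genes called were S100a8 and S100a9, the subunits of calprotectin. S100a8 (chr3:90668978-90670035) had 0, 77 and 11 counts and S100a9 (chr3:90692632-90695721) 0, 29 and 7. Library 2 was 6.09-fold above library 3 for S100a8 (3.22 to 12.7, adjusted p = 2.37e-09) and 3.60-fold for S100a9 (1.55 to 9.74, adjusted p = 0.0151) in the exact binomial test. Against library 1, library 2 was at least 24.8-fold higher for S100a8 and 9.36-fold for S100a9 (adjusted p = 1.50e-20 and 3.60e-07), and library 3 at least 4.08-fold higher for S100a8 (adjusted p = 0.0118). With 0 counts in library 1, these comparisons reached the minimum count through the other library alone. S100a8 begins before the mature stage, so its place in the list is a convention.

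No other mature gene was called, though not all had enough counts for the tests. Mmp9, gelatinase B, had 35, 55 and 30 counts (adjusted p = 0.132, chi-square test), and was present in library 1 as well. Csf3r, the receptor of the granulocyte growth factor, had 7, 3 and 3 counts. Mmp8, neutrophil collagenase, had 1, 0 and 4, too few for any test. Retnlg, a resistin-like protein of neutrophils, had 1, 8 and 5 and was tested only between libraries 2 and 3 (adjusted p = 0.935, exact binomial test). Its library 2 to library 1 ratio of 7.74 (1.04 to 344) rests on a single count in library 1 and was not tested.

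In sums, the granulocyte precursor genes stood at 1.25 CPM (0.340 to 3.19), 51.1 (43.6 to 59.5) and 6.27 (3.71 to 9.90), and the mature genes at 13.7 (9.97 to 18.4), 53.3 (45.6 to 61.9) and 20.9 (15.9 to 26.9). Library 2 exceeded library 3 by 7.97-fold in precursor counts (4.89 to 13.8) and 2.49-fold in mature counts (1.85 to 3.40). Mmp9, which was not called, held 35, 55 and 30 of the 44, 172 and 60 mature counts. It thus weighs on the mature ratio and on the shares of granulocyte counts that follow. The precursor share of granulocyte counts was 8.16% (2.27 to 19.6), 48.7% (43.2 to 54.1) and 23.1% (14.3 to 34.0). Ngp and Camp together made up 55.5% of the counts of these 2 genes plus S100a8 and S100a9 in library 2 (48.9 to 61.9) and 14.3% of 21 counts in library 3 (3.05 to 36.3).

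Other granulocyte genes were mostly low. Of 35 measured, 9 were tested and 4 were called (27.6% of all genes). Ly6g, the defining surface marker of mouse neutrophils, had 0, 1 and 0 counts. Fcnb, a ficolin of the precursor stage named after its values were seen, had 1, 11 and 0 counts, and library 2 was at least 3.19-fold above library 3 (adjusted p = 0.0203, exact binomial test). Pglyrp1, a peptidoglycan recognition protein, had 502, 669 and 452 counts and was present in all libraries. Itgam, the integrin chain of myeloid cells, ran against the granule genes with 21, 10 and 26 counts.

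The promoters of a few genes that were low in library 1 and high in library 2 are shown as examples. RefSeq promoters (GRCm38.p6) were matched for 13 erythroid and 14 granulocyte genes and searched on both strands from 250 bases before to 50 bases after the gene start. The letters searched were AGATAA for the GATA factors, CCNCNCCC for the box of Krüppel-like factors (CACC), TTGCNNAA for C/EBP and GAGGAAGT for ETS factors. The 250 bases before the start are printed 5′ to 3′ on the gene's strand. Capitals mark GATA and CACC matches in Hbb-bs (chr7:103827929-103828178, minus) and Alas2 (chrX:150547167-150547416, plus), and C/EBP and ETS matches in Ngp (chr9:110419558-110419807, plus) and S100a8 (chr3:90668821-90669070, plus). In all 4 the GENCODE M21 gene model begins upstream of the RefSeq start.
Hbb-bs: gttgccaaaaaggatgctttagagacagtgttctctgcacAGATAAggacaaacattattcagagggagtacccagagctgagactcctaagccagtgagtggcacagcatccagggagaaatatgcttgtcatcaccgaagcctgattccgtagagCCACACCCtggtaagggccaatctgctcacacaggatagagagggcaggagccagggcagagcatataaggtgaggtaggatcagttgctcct
Alas2: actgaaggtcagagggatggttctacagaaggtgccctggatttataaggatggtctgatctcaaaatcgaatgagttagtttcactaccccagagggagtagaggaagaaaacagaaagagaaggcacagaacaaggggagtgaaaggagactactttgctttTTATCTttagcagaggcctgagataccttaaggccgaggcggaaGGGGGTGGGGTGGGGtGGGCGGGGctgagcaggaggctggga
Ngp: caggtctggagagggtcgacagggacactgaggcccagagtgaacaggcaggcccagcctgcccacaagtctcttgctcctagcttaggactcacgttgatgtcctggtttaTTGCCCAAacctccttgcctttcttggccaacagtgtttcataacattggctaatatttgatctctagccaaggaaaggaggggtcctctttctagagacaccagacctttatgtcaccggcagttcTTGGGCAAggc
S100a8: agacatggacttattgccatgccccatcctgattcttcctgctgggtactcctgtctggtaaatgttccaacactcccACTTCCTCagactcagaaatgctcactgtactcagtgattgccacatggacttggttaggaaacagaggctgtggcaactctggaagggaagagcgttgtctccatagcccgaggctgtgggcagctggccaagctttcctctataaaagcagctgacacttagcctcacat
The GATA letters were found in 5 of 13 erythroid, 3 of 14 granulocyte and 11.2% of all 32851 promoters, and the CACC letters in 8 of 13, 8 of 14 and 49.5%. The C/EBP letters were found in 1 of 13 erythroid, 6 of 14 granulocyte and 10.8% of all promoters, and the ETS letters in 0 of 13, 5 of 14 and 3.20%. All 4 printed promoters hold marked matches, but other genes low in library 1 and high in library 2 had none. Hba-a1 and Hba-a2 held no GATA or CACC match, and Camp no C/EBP or ETS match. A match is a run of letters and not a measured binding site.

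Markers of other blood cells were read beside these results, and their part in the results was not tested. B and plasma cell genes were called in 7 of 8 tested, against 27.6% of all genes: Jchain, the joining chain of plasma cell antibodies, had 92, 389 and 129 counts and Igha, the constant region of IgA, 4, 1007 and 149, both highest in library 2 with the granulocyte genes. Ms4a1, the CD20 surface protein of B cells, had 121, 155 and 239 counts, highest in library 3. The 11 genes of that list summed to 180 CPM in library 1, 632 in library 2 and 409 in library 3. Monocyte and macrophage genes summed to 215, 230 and 271 CPM over 16 genes, 4 of 8 tested being called against 27.6% of all genes. Of the 4 called, 3 were highest in library 3 and 1 in library 2. Csf1r, the macrophage growth factor receptor, had 50, 19 and 46 counts, lowest where Ngp was highest. Ms4a6c had 128, 188 and 135 counts, highest in library 2 as Ngp was. Megakaryocyte genes (11, sums of 45.8, 50.8 and 40.4 CPM) and eosinophil, basophil and mast cell genes (14, sums of 21.2, 23.5 and 24.0 CPM) had no call in the chi-square test among 2 tested in each. Progenitor markers summed to 30.9, 28.5 and 42.5 CPM over 9 genes, 2 of 3 tested being called against 27.6% of all genes. Most of their counts were of Myb, with 69, 56 and 83, which was called with its highest level in library 3. Of the other progenitor markers, Kit had 16, 17 and 12 counts without a call, Gata2 none, and Cd34 1, 0 and 0. Flt3, a receptor of lymphoid and myeloid progenitors, had 8, 8 and 22 and was also called, highest in library 3.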

How the data were processed

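The deposited files give whole-number counts per gene for each library, made by the authors on the mm10 assembly with GENCODE M4 models, per the file descriptions deposited with them. The aligner, counting program, strand setting, read length and duplicate removal were not given in the sources used here. Values were used as deposited, and 262 of the 22457 identifiers had no symbol in GENCODE M21. The 33 genes, the stage lists and the other lists were chosen with earlier results of these data known.

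CPM are counts per 1000000 total counts. TMM factors were 0.990, 1.02 and 0.993 (edgeR 4.0.16, R 4.3.3). Genes with a mean count of at least 10 were compared over the 3 libraries with Pearson's chi-square against Poisson expectation (2 degrees of freedom). Pairs were compared by a 2-sided exact binomial test of each gene, given its summed count (scipy 1.17.1). Within each comparison, Benjamini-Hochberg adjustment was used with a threshold of 0.05, and the scripts were tested on simulated data. edgeR's quasi-likelihood test needs replicates of 2 groups and was not used. Shares have exact Clopper-Pearson intervals and sums exact Poisson intervals, which cover counting error only, since reads without molecular identifiers are not independent molecules. Members were named with counts in each library; of each other list, the 3 genes with the highest mean CPM and genes called with a ratio of at least 2 were eligible, and some of these are not reported here.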

Additional observations from a re-analysis of the deposited data

How the results depend on the processing

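Counts of calls stayed within 1.5 times of the value given in 93 recomputations and left that range in 9. The recomputations covered scaling (total counts, DESeq2 size factors), filters, thresholds and left-out libraries. Over scaling, filters and thresholds, no member that stayed called changed the library in which it was highest. Changes of direction were not assessed with a library left out. Over the libraries left out in turn, called erythroid genes ranged from 5 to 13, granulocyte genes from 0 to 4 and all genes from 960 to 2014 (main values 13, 4 and 2836). With a common negative binomial dispersion 93 of all genes were called and at an adjusted p of 0.01 1700. At that threshold 1 erythroid gene was lower in library 2 than in library 1 (2 at 0.05), and 0 granulocyte genes were higher in library 3 than in library 1 (1 at 0.05). The summed early erythroid level over libraries was 109.6 CPM without Gata1. The globin share in libraries 2 and 3 was 59.5% and 66.8% per coding length, 43.6% and 49.9% without Tfrc and Car2, and 53.7% and 69.4% without Gata1, Tfrc and Car2, an alternative chosen after seeing the data. The granulocyte precursor share per coding length was 25.5% in library 1 and 40.2% in library 2, and 71.7% in library 2 without S100a8, S100a9 and Csf3r. The cause of these shifts was not tested beyond the genes removed or the length used. Genes under 3 counts in a library cannot be placed in an order.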

Other observations

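Globins stood among the genes that most separated library 1 from the others. Of the 10 genes with the highest library 2 to library 1 ratio (at least 30 counts over the pair), 4 were globins, and the other 6 were immunoglobulin genes. Igkv5-39 had 0, 375 and 143 counts in libraries 1, 2 and 3, and Igkv4-50 had 0, 160 and 1. Igkv17-121 had 0, 125 and 5, Igkv4-55 0, 83 and 1, Igkv1-117 1, 242 and 10, and Igha 4, 1007 and 149. Of the 10 genes with the highest library 3 to library 1 ratio, 5 were globins or Slc4a1. The other 5 were Igkv5-39, Igha, Ighg1 with 1, 0 and 228 counts, Igkv8-24 with 2, 7 and 120, and Ighv1-64 with 1, 2 and 45. Igkv5-39 and Igha were in both sets of 10 genes, and the globins had similar counts in libraries 2 and 3.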
